A study of Mus musculus with 2 samples.

Results

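The genes described here encode the non-collagen extracellular matrix and the secreted and surface products of fibroblast-like stromal cells. They comprise 48 genes, of 18194 genes represented on the arrays by a probe set with a single gene symbol, and they were chosen by function, and partly for the large ratios of Efemp1, Mgp and Sfrp1 in these same arrays. The ratios of the members are therefore a description of 2 arrays and support nothing on their own. RNA came from cultured thioglycolate-elicited peritoneal macrophages of 8-week-old male C57BL6 mice, which are inflammatory macrophages that an irritant medium recruits to the peritoneal cavity. One group was kept for 12 h with CSF1 (macrophage colony-stimulating factor) at 100 ng/ml, and the control group for the same 12 h with no addition. Each group is 1 Affymetrix mouse genome array. The labels give neither the number of animals behind an array nor a step, other than plating and culture, that would remove stromal cells. With 1 array per group there is no replicate check and no test, and precision is limited by the number of arrays.

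The extracellular matrix outside the collagens is built from elastic fibres on a scaffold of microfibrils, from proteoglycans that bind and space collagen fibrils, from the laminin network of basement membranes, and from matricellular proteins that modulate how cells attach without bearing load. Fibroblasts, mesothelial cells and smooth muscle cells are the classical producers, whereas macrophages are known for fibronectin and for breaking matrix down. In peritoneal tissue, fibroblasts and the mesothelial lining lay down this matrix during inflammation and repair. In a bulk sample, fewer cells of a type and less RNA per cell cannot be told apart.

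A background level of 144 units, the 90th percentile of the signals of genes of unrelated tissues, was used to decide which members were measured. Lower signals were raised to it for the ratios, whereas signals and sums in units are given as deposited. Of the 48 members, 39 lay above it on both arrays, 2 (Fmod and Sfrp2) on the CSF1 array only and 1 (Eln) on the control array only, which gives 42 measured members. Mfap4, Aspn and Sparcl1 were below it on both arrays. Efemp2 and Fbn1 had no probe set named for them here, and the 2 probe sets of Loxl2 carried a second gene symbol, so these 3 were not analysed here. The members that passed this level did so partly through the array on which they were high, so their counts are not counts over all 48.

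Among the 42 measured members, 3 reached 2-fold higher on the CSF1 array, beside 0.898% of all 10912 measured genes, and 0 reached 2-fold lower, beside 0.706% of all genes. These 3 are Efemp1, Mgp and Sfrp1, for which the list was partly picked, so the count follows from the choice. Another 11 members were between 1.5-fold and 2-fold higher, 28 were within 1.5-fold and none was 1.5-fold lower. In all, 14 of 42 reached 1.5-fold higher, beside 5.81% of all genes, and 0 reached 1.5-fold lower, beside 5.29%. The log2 ratio of CSF1 over control was above 0 in 33 members and below 0 in 9, beside 50.2% and 49.8% of all measured genes. The median log2 ratio of the measured members was 0.31, or 1.24-fold, beside 0.00 for all measured genes, and it was 0.27 without Efemp1, Mgp and Sfrp1. The members nearest to the 2-fold threshold were Pcolce2, short of it at 1.87-fold, and Sfrp1, well past it at 2.85-fold. No measured member lay between them.

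**Figure D1:**
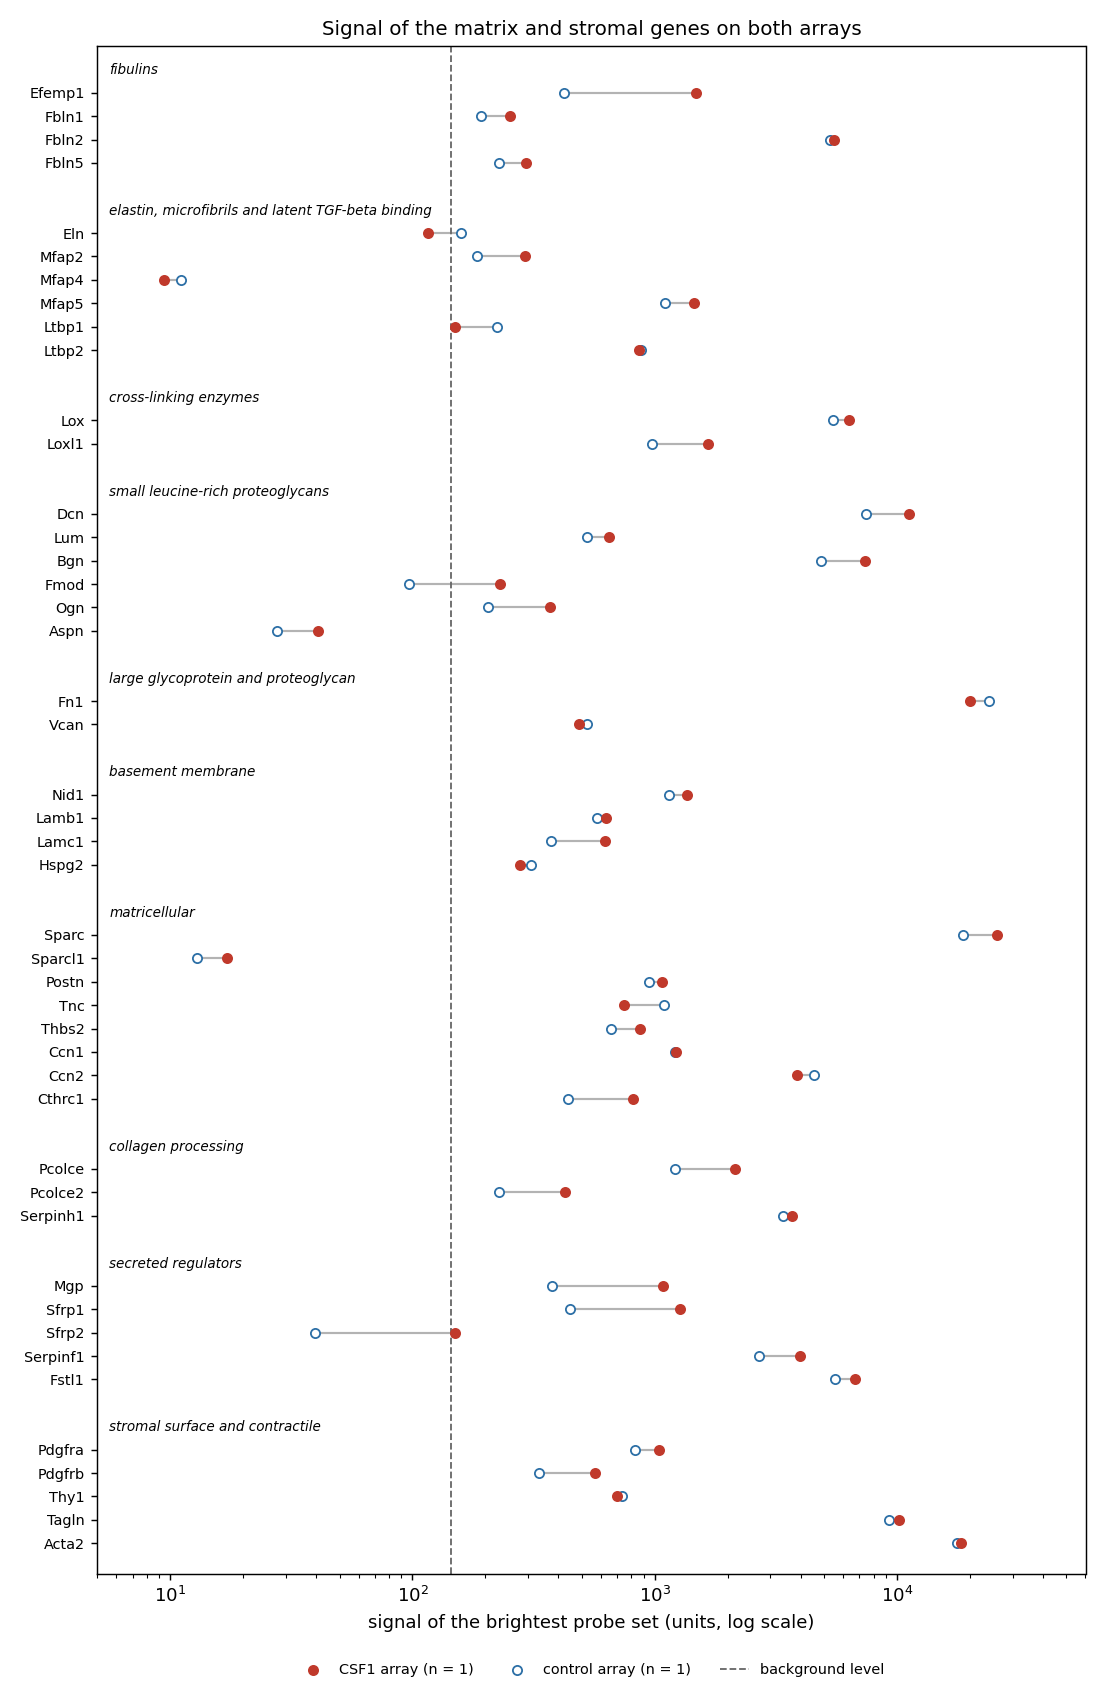
Signal of the brightest probe set of each of the 45 members with a single-symbol probe set (x axis, units, log scale), by class of gene, on the CSF1 array (filled) and the control array (open), 1 array each, with the background level as a dashed line. Efemp1, Mgp and Sfrp1 show the widest gaps among members above background on both arrays, while Acta2, Fbln2, Ccn1 and Ltbp2 have nearly overlapping points.

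The promoter windows of a few members are shown so that members with a high ratio can be read beside members with nearly none. They are the 3 of highest log2 ratio and the 2 nearest to 0, among those above background on both arrays with a single window. RefSeq windows (build GRCm38.p6, 300 bases, of which the last 50 follow the transcript start) were found for 30 of the 48 members, and Mgp and Sfrp1 are not among them. Capitals mark matches to 4 short motifs, searched on both strands. The first is the site of AP-1 factors, TGANTCA, and the second is the site of TEAD factors, which act with YAP, spelled GGAATG. The others are the core promoter element called the TATA box, searched as the letters TATAAA, and the element named by its own letters, the CCAAT box. Efemp1 lies at chr11:28852955-28853254, plus strand, Pcolce2 at chr9:95637378-95637677, plus strand, Ogn at chr13:49607765-49608064, plus strand, Ccn1 at chr3:145649936-145650235, minus strand, and Ltbp2 at chr12:84876442-84876741, minus strand. Each sequence reads 5′ to 3′ toward the gene.
Efemp1: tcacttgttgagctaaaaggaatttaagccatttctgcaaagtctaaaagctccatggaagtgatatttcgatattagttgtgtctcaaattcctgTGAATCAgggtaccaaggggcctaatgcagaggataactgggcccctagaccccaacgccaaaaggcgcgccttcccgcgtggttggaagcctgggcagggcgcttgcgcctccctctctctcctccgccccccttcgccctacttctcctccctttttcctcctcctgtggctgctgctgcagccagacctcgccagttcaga
Pcolce2: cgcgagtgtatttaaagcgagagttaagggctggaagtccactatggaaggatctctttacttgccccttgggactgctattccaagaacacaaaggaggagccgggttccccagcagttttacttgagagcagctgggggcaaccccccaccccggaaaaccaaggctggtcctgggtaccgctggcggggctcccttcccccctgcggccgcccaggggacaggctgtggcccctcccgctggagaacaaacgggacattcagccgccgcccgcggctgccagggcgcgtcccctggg
Ogn: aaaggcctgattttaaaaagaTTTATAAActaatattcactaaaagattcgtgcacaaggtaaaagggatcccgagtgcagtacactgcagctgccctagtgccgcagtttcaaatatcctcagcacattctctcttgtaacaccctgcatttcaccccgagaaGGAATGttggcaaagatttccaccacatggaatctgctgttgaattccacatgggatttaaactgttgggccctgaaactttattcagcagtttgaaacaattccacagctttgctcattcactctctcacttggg
Ccn1: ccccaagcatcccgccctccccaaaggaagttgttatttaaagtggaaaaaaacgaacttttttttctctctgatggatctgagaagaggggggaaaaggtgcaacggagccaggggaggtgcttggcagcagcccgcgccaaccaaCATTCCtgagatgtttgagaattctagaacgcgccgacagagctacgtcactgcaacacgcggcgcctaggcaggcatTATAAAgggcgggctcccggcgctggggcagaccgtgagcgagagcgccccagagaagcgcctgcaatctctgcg
Ltbp2: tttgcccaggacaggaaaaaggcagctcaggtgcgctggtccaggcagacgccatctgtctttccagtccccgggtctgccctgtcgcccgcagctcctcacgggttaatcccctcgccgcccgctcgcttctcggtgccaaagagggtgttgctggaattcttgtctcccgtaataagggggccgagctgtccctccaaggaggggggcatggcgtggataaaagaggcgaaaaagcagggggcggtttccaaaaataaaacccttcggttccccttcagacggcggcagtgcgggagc

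In these windows Efemp1 had an AP-1 match that starts 154 bases before the transcript start of the window. It was the only such match among the 30 members, beside 8.97% of all 27025 genes in the table. The window starts of Efemp1 and Ltbp2 lie downstream of the outer RefSeq gene boundaries, at 28853154 and 84876558, so distances are from the window starts only. Ogn had a TEAD match 86 bases before the start and a pair of overlapping TATA matches on opposite strands, 229 and 227 bases before it. Ccn1, a classical target of YAP and TEAD, had a TEAD match on the opposite strand 103 bases before the start and a TATA box 25 bases before it. Pcolce2 and Ltbp2 held none of these motifs. Over the 30 members, the TEAD motif was in 5 (16.6% of all genes), the TATA motif in 6 (15.7%), the CCAAT motif in 11 (41.1%), and the E-box (CANNTG) in 22 (75.0%). A match to so short a motif is a description of the letters and shows no binding.

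The fibulins are secreted glycoproteins with calcium-binding EGF modules that sit in elastic fibres and basement membranes. Efemp1, also called fibulin-3, had 1484 units on the CSF1 array and 423 units on the control array, 3.51-fold higher and the highest ratio of the members, from its only probe set. Fbln1 had 252 units on the CSF1 array and 193 units on the control array, 1.31-fold higher. The level of Fbln5, which guides elastic fibre assembly, was 294 units on the CSF1 array and 228 units on the control array, 1.29-fold higher. Both of these ratios are far below that of Efemp1. Fbln2 stood at 5503 units on the CSF1 array and 5297 units on the control array, 1.04-fold higher, so the 4 measured fibulins spanned a log2 range of 0.05 to 1.81.

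Elastic fibre and microfibril genes went both ways, with 2 of 5 measured above 0 and a median log2 ratio of -0.03. Mfap5, a microfibril-associated glycoprotein, had 1456 units on the CSF1 array and 1104 units on the control array, and its 2 probe sets averaged a log2 ratio of 0.47 ± 0.11 (SD between probe sets). Its relative Mfap2 had 291 units on the CSF1 array and 185 units on the control array, 1.58-fold higher. Both microfibril-associated genes were thus higher, while the genes that follow were level or lower. Ltbp1, which anchors latent TGF-beta in the matrix, had 149.5 units on the CSF1 array, close to the background level, and 223 units on the control array, 1.49-fold lower. Ltbp2 was level, with 862 units on the CSF1 array and 879 units on the control array. Elastin itself, Eln, had 116 units on the CSF1 array, below background, and 159 units on the control array, so its fold is only bounded, at least 1.11-fold lower. Mfap4, another elastic fibre protein, was at 9.44 units on the CSF1 array and 11.04 units on the control array, both below background.

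The cross-linking enzymes oxidise lysines of collagen and elastin. Loxl1, which acts mainly on elastin, had 1654 units on the CSF1 array and 970 units on the control array, 1.71-fold higher. Lox had 6311 units on the CSF1 array and 5428 units on the control array, and its 2 probe sets averaged 0.23 ± 0.01 on the log2 scale. The gap between these enzymes, 0.77 against 0.22 on their brightest probe sets, has no replicate behind it.

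Small leucine-rich proteoglycans bind collagen fibrils and regulate their thickness, and all 5 measured were higher on the CSF1 array, with a median log2 ratio of 0.61. Decorin, Dcn, had 11235 units on the CSF1 array and 7447 units on the control array, 1.51-fold higher. Biglycan, Bgn, had 7383 units on the CSF1 array and 4846 units on the control array, and its 3 probe sets agreed closely, at 0.59 ± 0.07. Ogn (osteoglycin) had 370 units on the CSF1 array and 205 units on the control array, and its 2 probe sets gave 1.81-fold and 2.66-fold, or 1.13 ± 0.40 on the log2 scale. The second of them had 444 units on the CSF1 array and 167 units, near the background level, on the control array. The probe sets of Ogn thus shared a direction but spread more widely than those of Bgn. Lumican, Lum, had 650 units on the CSF1 array and 527 units on the control array, 1.23-fold higher. Fibromodulin, Fmod, had 230 units on the CSF1 array and 96.3 units on the control array, at least 1.60-fold higher. None of its 6 probe sets was above background on the control array, where they read 38.5 to 96.3 units, and 5 of them were on the CSF1 array, at 170 to 248 units. Aspn, the asporin gene, was at 40.7 units on the CSF1 array and 27.6 units on the control array, both below background.

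The genes of the large glycoprotein fibronectin and the large proteoglycan versican were slightly lower on their brightest probe sets. Fibronectin, Fn1, which macrophages also make, had 19982 units on the CSF1 array and 24009 units on the control array, a log2 ratio of -0.26. Its dimmer probe set was 2.09-fold lower, with 324 units on the CSF1 array and 677 units on the control array, so that both averaged -0.67 ± 0.57 on the log2 scale. Versican, Vcan, a hyaluronan-binding proteoglycan, had 486 units on the CSF1 array and 525 units on the control array, and the 2 of its 8 probe sets that were above background on both arrays averaged -0.09 ± 0.04. Another probe set of Vcan pointed the other way, with 173 units on the CSF1 array and 33.8 units, below background, on the control array.

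Of the basement membrane genes, 3 of 4 were above 0 on their brightest probe sets, with a median log2 ratio of 0.18. The laminin gamma chain gene Lamc1 had 625 units on the CSF1 array and 372 units on the control array, 1.68-fold higher, whereas its other probe set was below background on both arrays. The laminin beta chain gene Lamb1 had 631 units on the CSF1 array and 579 units on the control array, 1.09-fold higher on the brightest probe set, and 0.43 ± 0.35 on the log2 scale over 3 probe sets. These partner chains therefore differed on their brightest probe sets, but the probe sets of Lamb1 spread from 0.12 to 0.81. Nid1, which links laminin to collagen IV, had 1356 units on the CSF1 array and 1146 units on the control array, 1.18-fold higher. A second probe set of Nid1 pointed the other way, with 55.7 units, below background, on the CSF1 array and 164 units on the control array. Perlecan, Hspg2, had 278 units on the CSF1 array and 310 units on the control array, 1.11-fold lower.

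Matricellular genes spanned both directions, with 5 of 7 measured above 0 and a median log2 ratio of 0.18. Cthrc1, a secreted collagen triple helix repeat protein of remodelling tissue, had the highest ratio, with 813 units on the CSF1 array and 440 units on the control array, 1.85-fold. Sparc, a collagen-binding glycoprotein, had 25989 units on the CSF1 array and 18758 units on the control array, and its 2 probe sets agreed at 0.44 ± 0.05. Thbs2, an antiangiogenic thrombospondin, had 865 units on the CSF1 array and 660 units on the control array, with 0.83 ± 0.57 over 3 probe sets that gave 1.31-fold, 1.55-fold and 2.77-fold. All 3 of these genes were higher on every probe set above background on both arrays. Postn (periostin) had 1069 units on the CSF1 array and 943 units on the control array, 1.13-fold higher. Ccn1 was level on its brightest probe set, with 1220 units on the CSF1 array and 1213 units on the control array, and averaged 0.15 ± 0.21 over 2. A further probe set of Ccn1 had 152 units on the CSF1 array and 123 units, below background, on the control array. The related Ccn2, like Ccn1 a gene that mechanical stress induces through YAP, had 3856 units on the CSF1 array and 4563 units on the control array, 1.18-fold lower. Tenascin C, Tnc, a protein of wounds, was the lowest of the class, with 748 units on the CSF1 array and 1095 units on the control array, 1.46-fold lower. Sparcl1 was at 17.1 units on the CSF1 array and 12.9 units on the control array.

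All 3 collagen processing genes were above 0, with a median log2 ratio of 0.82. Pcolce, a secreted enhancer of the protease that trims procollagen, had 2153 units on the CSF1 array and 1215 units on the control array, and its 2 probe sets averaged 0.75 ± 0.10 on the log2 scale. Its relative Pcolce2 had 424 units on the CSF1 array and 227 units on the control array, 1.87-fold higher. Both of these genes were past 1.5-fold. Serpinh1 (Hsp47), an intracellular collagen chaperone, had 3696 units on the CSF1 array and 3392 units on the control array, 1.09-fold higher, and 0.26 ± 0.20 over 2 probe sets.

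The secreted regulators held 2 of the 3 genes past 2-fold. Mgp, the matrix Gla protein that blocks calcification, had 1085 units on the CSF1 array and 378 units on the control array, 2.87-fold higher on its only probe set. Sfrp1, a soluble antagonist of WNT ligands, had 1273 units on the CSF1 array and 447 units on the control array, 2.85-fold higher. Its other probe sets above background on both arrays gave 4.84-fold and 1.59-fold, so the mean log2 ratio was 1.48 with a wide SD of 0.80 between 3 probe sets. All 3 were higher on the CSF1 array, but the size of the difference depends on the probe set. Another probe set of Sfrp1 had 180 units on the CSF1 array and 44.8 units, below background, on the control array. Sfrp2 had 149 units on the CSF1 array, just above background, and 39.7 units on the control array, so it was only at least 1.04-fold higher. Serpinf1, the antiangiogenic factor PEDF, had 3976 units on the CSF1 array and 2700 units on the control array, and averaged 0.68 ± 0.17 over 2 probe sets. Fstl1, a secreted follistatin-like protein, had 6685 units on the CSF1 array and 5558 units on the control array, and its 2 probe sets averaged 0.26 ± 0.01.

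**Figure D2:**
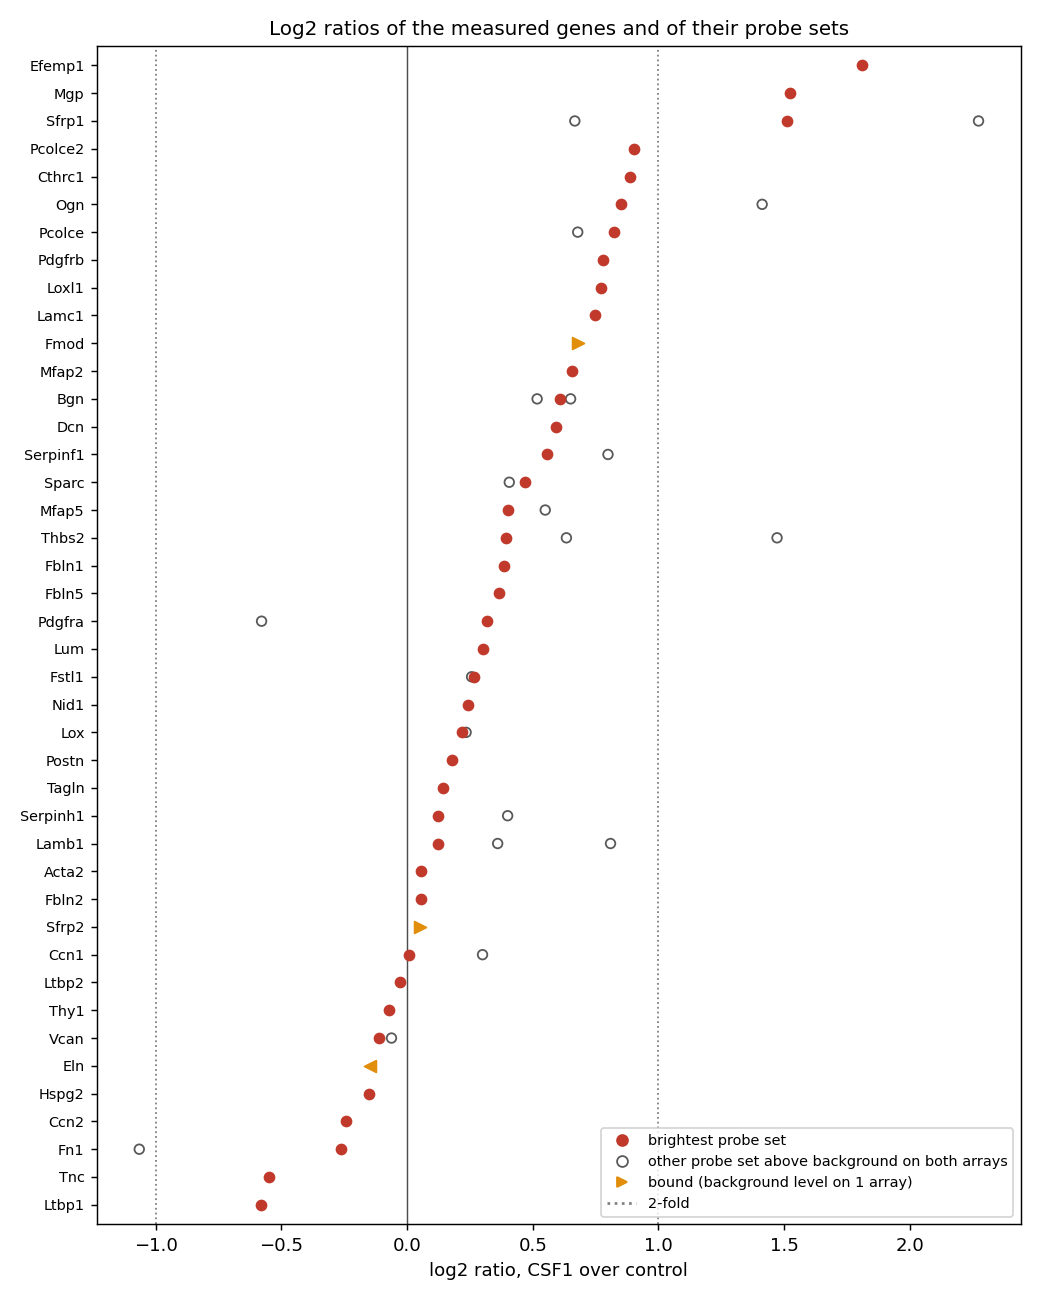
Log2 ratio of CSF1 over control (x axis) for the 42 measured members, from highest to lowest, with the brightest probe set filled, other probe sets above background on both arrays open, bounds as triangles, and the 2-fold lines dotted. Efemp1, Mgp and Sfrp1 lie past the 2-fold line on their brightest probe set, no member's brightest probe set lies past it on the lower side, and the probe sets of Pdgfra lie on opposite sides of 0.

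The surface and contractile genes that mark stromal cells differed little on their brightest probe sets, except Pdgfrb. Acta2, the alpha smooth muscle actin of myofibroblasts, had 18347 units on the CSF1 array and 17657 units on the control array, 1.04-fold higher. Tagln, an actin-binding protein of contractile cells, had 10236 units on the CSF1 array and 9263 units on the control array, 1.11-fold higher. Thy1, a fibroblast surface glycoprotein that T cells also carry, had 698 units on the CSF1 array and 734 units on the control array, 1.05-fold lower. These 3 markers thus lay within 1.5-fold while being far above background on both arrays. Pdgfra, the receptor that marks most fibroblasts, had 1036 units on the CSF1 array and 831 units on the control array, a log2 ratio of 0.32. Its second probe set pointed the other way, with 220 units on the CSF1 array and 328 units on the control array, so that both averaged -0.13 ± 0.63 on the log2 scale. Pdgfrb, the receptor of pericytes and fibroblasts, had 569 units on the CSF1 array and 332 units on the control array, 1.71-fold higher. Its other probe set had 168 units on the CSF1 array and 22.2 units, below background, on the control array.

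Where a member had several probe sets above background on both arrays, which held for 16 members, all of them pointed the same way in 15, Pdgfra being the exception. The pooled SD between probe sets was 0.40 on the log2 scale over these 16 members, and 0.29 over 3753 such genes on the arrays. Of the 39 members above background on both arrays, 15 exceeded 0.40 upward, beside 11.7% of all such genes, and 2 (Tnc and Ltbp1) downward, beside 10.2%. Efemp1, Mgp and Sfrp1, for which the list was partly picked, are among these 15. The other 22 members lay within 0.40. That level is 1 pooled SD of these same members, to which Sfrp1 contributes an SD of 0.80, so exceeding it is no test. For 10 measured members (Fbln1, Fbln2, Bgn, Fmod, Lamb1, Ccn1, Pcolce, Serpinh1, Pdgfrb and Acta2) the suffix of the brightest probe set's name means that it may also detect other transcripts. The spread between probe sets covers probe design and hybridisation, and neither cultures nor animals. Efemp1 and Mgp are among 23 members for which a single probe set was above background on both arrays, so their ratios have no such check.

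On both arrays, all 12 macrophage markers (among them Csf1r, the CSF1 receptor, and Adgre1, the F4/80 antigen) were above background, so the markers of the labelled cell type were present. Their summed signal was 175259 units on the CSF1 array and 202524 units on the control array, and 10 of 12 were below 0, with a median log2 ratio of -0.16. Mertk, a receptor for apoptotic cells, was 1.68-fold lower, Cd68 1.33-fold lower and Lyz2 (lysozyme) 1.29-fold lower. Most of these markers were bright. Loess, which corrects ratios for a trend with signal, moved the brightest members Sparc from 0.47 to 0.61 and Fn1 from -0.26 to -0.13 (log2). The marker ratios are given without that correction. Csf1r had 18697 units on the CSF1 array and 23704 units on the control array. Stromal transcripts were present on both arrays as well. The spiked hybridisation controls averaged -0.29 ± 0.13 on the log2 scale over 18 probe sets, so that relative to the spikes the median gene was higher on the CSF1 array. Actb averaged -0.30 ± 0.02 over 5 probe sets and Gapdh -0.54 ± 0.22 over 3.

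Markers of the cell types that could supply these transcripts were set beside the members. Of 18 further fibroblast genes, 9 were measured, 6 of them above 0, with a median log2 ratio of 0.22 and none past 2-fold. Their summed signal was 69190 units on the CSF1 array and 57246 units on the control array, most of it from Col3a1 and Col1a2. Of these 9, only Gsn, Lrp1 and Prrx1 are not collagen chains. The others, Col1a1, Col1a2, Col3a1, Col5a1, Col6a1 and Col6a2, are counted again among the collagen chains below. Lrp1 is counted again among the matrix receptors. Col3a1 had 24045 units on the CSF1 array and 18381 units on the control array, with 0.58 ± 0.27 on the log2 scale over 2 probe sets, and Col1a2 was 1.17-fold higher. Col6a1 was 1.52-fold higher, Gsn 1.35-fold higher on its brightest probe set (0.48 ± 0.52 over 5) and Lrp1, which macrophages also make, 1.42-fold lower. Col1a1 averaged -0.06 ± 0.26 over 2 probe sets, and the mesenchymal transcription factor gene Prrx1 had 225 units on the CSF1 array and 243 units on the control array. The other 9 (Dpt, Pi16, Cd34, Clec3b, Tcf21, Gli1, Twist1, Twist2 and Meox1) were below background on both arrays. The part of a different share of fibroblasts in the ratios of the members was not tested.

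Mesothelial cells line the peritoneal cavity, and 9 of 18 of their markers were measured, 7 of them above 0, with a median log2 ratio of 0.12. Slpi, which macrophages also make, held most of the summed signal of 18622 units on the CSF1 array and 20959 units on the control array. The other 8 summed to 1642 units on the CSF1 array and 1210 units on the control array. This control sum includes readings below background, of 134 units for Bnc1, 30.6 units for Upk3b and 7.30 units for Rspo1. The gap between the sums rests partly on these readings. Bnc1 was at least 1.56-fold higher, with 224 units on the CSF1 array and 134 units on the control array. Rspo1 was at least 1.21-fold higher and Upk3b at least 1.12-fold higher, both above background on the CSF1 array only. Wt1 had 195 units on the CSF1 array and 175 units on the control array. Msln, Upk1b, Lrrn4, Muc16, Krt7, Krt19, Gpm6a, Igfbp5 and Cldn15 were below background on both arrays, so the defining marker of this lineage, Msln, was not measured. Whether mesothelial cells contributed to Efemp1, Mgp or Sfrp1 was not tested.

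Smooth muscle and pericyte markers other than the members had 5 of 11 measured, with a median log2 ratio of -0.22 and 4 below 0. Cnn1 was 1.41-fold lower and Des had a log2 ratio of -0.27. Mylk was 1.23-fold higher on its brightest probe set but -0.02 ± 0.46 over 2, Notch3 was at least 1.17-fold lower, and Myh11, Rgs5, Cspg4, Smtn, Kcnj8 and Abcc9 were below background on both arrays. The summed signal of the measured genes was 2610 units on the CSF1 array and 2891 units on the control array. Endothelial markers had 4 of 10 measured, with 620 units on the CSF1 array and 685 units on the control array in sum. These sums include readings below background, of Cldn5 (126 units) and Kdr (115 units) on the CSF1 array and Esam (48.8 units) on the control array. Cdh5, Tek, Tie1, Emcn, Robo4 and Erg were below background on both arrays, Cldn5 was at least 1.78-fold lower, Kdr at least 1.54-fold lower, Esam at least 1.17-fold higher and Egfl7 1.32-fold higher (0.21 ± 0.28 over 2 probe sets).

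Markers of lymphocytes and granulocytes were also followed. Of 12 T and NK cell genes, 8 were measured and 7 of them below 0, with a median log2 ratio of -0.16, and Gzma and Gzmb were 3.29-fold and 2.77-fold lower. Prf1 was 1.75-fold lower and Cd3d 1.27-fold higher. Of 8 B cell genes, 5 were measured with a median of 0.02, Ighm being 1.73-fold higher on its brightest probe set (0.43 ± 0.43 over 3) and Cd79b at least 1.50-fold lower. Of 10 neutrophil and mast cell genes, 4 were measured with a median of -0.31. The mast cell proteases Tpsb2, Cma1 and Cpa3 were 1.35-fold, 1.33-fold and 1.15-fold lower, whereas the neutrophil gene S100a8 was 1.13-fold higher. The neutrophil genes S100a9, Cxcr2, Camp and Ltf and the mast cell gene Mcpt4 were below background on both arrays. The sums were 3852, 5423 and 7498 units on the CSF1 array and 7841, 3472 and 7295 units on the control array for these 3 lists in that order.

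**Figure D3:**
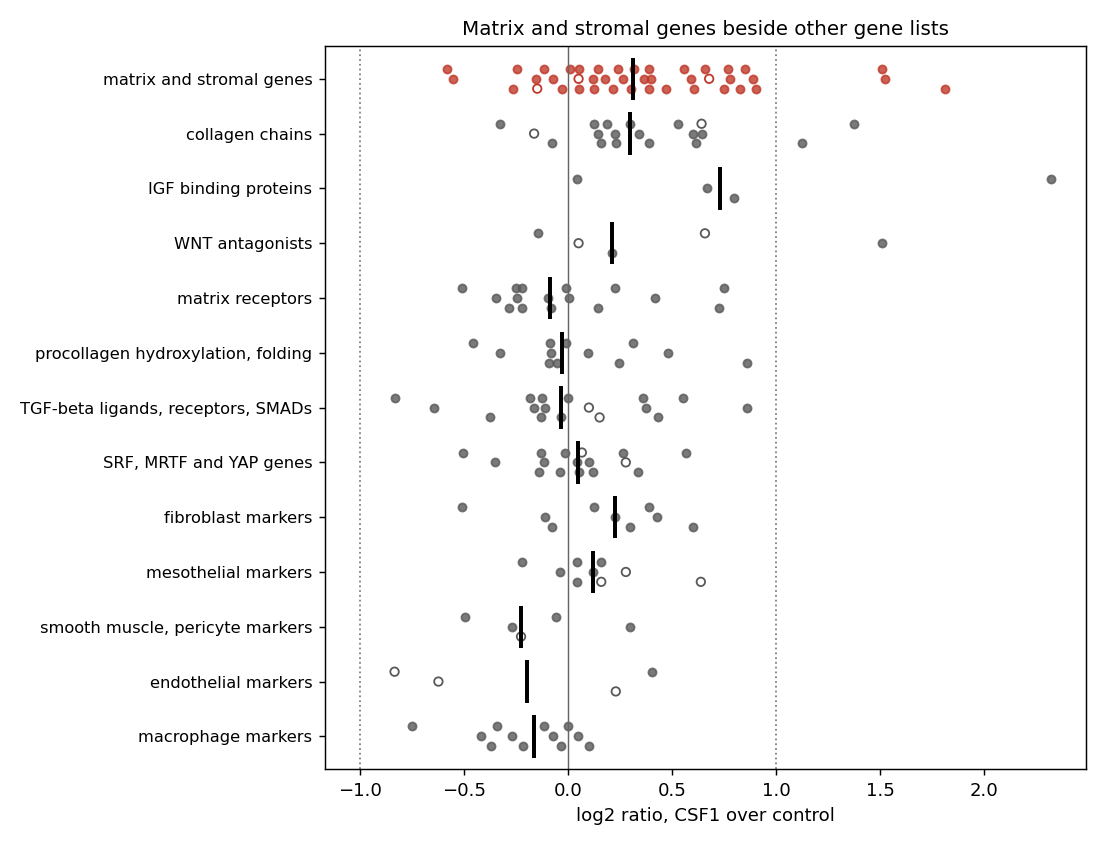
Log2 ratio of CSF1 over control (x axis) for the measured genes of the matrix and stromal list (top) and of other lists, each point a gene, open where the value is a bound, with the median as a bar and the 2-fold lines dotted. Medians of the matrix list (0.31), collagen chains (0.30) and IGF binding proteins (0.73) lie right of 0, and those of matrix receptors (-0.09) and macrophage markers (-0.16) left of it. Some lists share genes, and the ratios are not corrected for a trend with signal.

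Collagen chains, the structural partners of these genes, had a like median of 0.30, with 19 of 24 measured, 16 above 0, 2 past 2-fold higher and 0 past 2-fold lower. They include the collagen genes of the fibroblast markers, so these lists overlap. The fibril-nucleating chain gene Col11a1 had 559 units on the CSF1 array and 216 units on the control array, with 1.24 ± 0.19 on the log2 scale over 2 probe sets. Col4a5, a basement membrane chain, had 973 units on the CSF1 array and 446 units on the control array, with 0.95 ± 0.25 over 2 probe sets. Col1a2 and Col3a1, chains of the main fibrillar collagens, were within 1.5-fold on their brightest probe sets. Col8a1 was 1.56-fold higher and Col7a1 at least 1.56-fold higher.

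Of the genes that hydroxylate and fold procollagen inside the cell, 5 of 12 measured were above 0, with a median log2 ratio of -0.03 and none past 2-fold. P3h1, a prolyl 3-hydroxylase, was 1.81-fold higher on its brightest probe set but 0.41 ± 0.64 over 2, and the lysyl hydroxylase gene Plod2 was 1.40-fold higher. P4ha1, a prolyl 4-hydroxylase subunit that hypoxia also induces, was 1.37-fold lower, and Plod1 had a log2 ratio of -0.33. Receptors for matrix had a median of -0.09, with 6 of 16 measured above 0. The collagen receptor genes Ddr1 and Ddr2 were 1.68-fold and 1.33-fold higher, and the collagen endocytosis receptor gene Mrc2 was 1.65-fold higher. Mrc2 had 248 units on the CSF1 array and 150 units, close to the background level, on the control array. The integrin genes Itgb1, Itgav and Itgb5 averaged -0.30 ± 0.19 over 3, -0.15 ± 0.13 over 2 and -0.32 ± 0.15 over 4 probe sets. Of the other measured integrin genes, Itga1 (-0.34) and Itgb3 (-0.25) were below 0 and Itga5 (0.15) above it.

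Genes of the signals known to drive matrix production showed no common direction. TGF-beta ligands, receptors and SMADs had a median log2 ratio of -0.03, with 8 of 17 measured above 0. Tgfbr3 was 1.82-fold higher on its brightest probe set (0.45 ± 0.58 over 2), Tgfb3 was 1.47-fold higher, and the TGF-beta-induced matrix gene Tgfbi was 1.78-fold lower, at -0.87 ± 0.20 over 4 probe sets. Skil, a feedback inhibitor of this pathway, was 1.56-fold lower, at -0.75 ± 0.16 over 2. SRF, MRTF and YAP genes had a median of 0.05, with 9 of 16 measured above 0. Among them Amotl2 was 1.48-fold higher and Mrtfa 1.26-fold higher, while Ankrd1 was 1.42-fold lower and Vcl 1.28-fold lower.

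In the families of the secreted regulators, IGF binding proteins had 4 of 6 measured, all above 0, with a median log2 ratio of 0.73. Igfbp3 had 1848 units on the CSF1 array and 370 units on the control array, at 2.35 ± 0.04 over 2 probe sets. Igfbp4 was 1.74-fold higher, Igfbp7 1.59-fold higher and Igfbp6 1.03-fold higher. Of 9 WNT antagonists, which include the members Sfrp1 and Sfrp2, 5 were measured, with a median of 0.21. Sfrp4 was at least 1.58-fold higher, with 227 units on the CSF1 array and 73.3 units on the control array, Frzb was 1.16-fold higher and Dkk3 1.11-fold lower. Sfrp1 is the WNT antagonist past 2-fold here, and Sfrp2 and Sfrp4 were above background on the CSF1 array only.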

How the data were processed

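The authors deposited intensity values on a linear scale, 1 per probe set and array, which they analysed with GeneSpring 6.2 per the series' design text. With 2% trimmed at either end, both deposited arrays averaged 500.003 units. How probe signals were summarized is not stated in the labels, and detection calls were not used. The CSF1 and control groups came from the labels, with 1 array each.

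Of 45101 probe sets, 34958 carried 1 gene symbol in GEO's platform annotation, 932 several and 9211 none. Symbols were checked by Entrez ID against RefSeq, and 0 differed. Values were moved to log2. Each of 18194 genes was represented by its single-symbol probe set of highest mean log2 signal. Signals were raised to a background level of 143.9 units (90th percentile over 138 probe sets for 85 tissue-restricted genes foreign to this sample, of 95 listed). Of those 85 genes, 7 exceeded it on both arrays, so not all were silent. A gene was measured when at least 1 array exceeded this level (10912 genes), and a fold against a raised value is a lower bound. The measure is the log2 ratio of CSF1 over control, with no test, p-value or standard error. Summed signals of a list add the deposited values of its measured genes, without raising low ones.

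The members and all lists were chosen with earlier results of these data known. All members are accounted for, and of each other list the text names up to 4 genes of largest absolute ratio, those past 2-fold and defining markers. Further genes were named after their values were seen: Col1a2, Col1a1, Col5a1, Col6a2, Prrx1, Wt1, Adgre1, Itgb1, Itgav, Itgb5, Itga1, Itgb3 and Itga5. The alternatives comprised centring on the median or on the spikes, quantile normalization, loess (span 0.3), other background levels, the mean of all probe sets, unshared probe sets and other fold thresholds. The procedure was tested on simulated data with changes larger than any member's ratio, in genes well above background. That test does not cover smaller changes or signals near the background level. Tools were matplotlib 3.10.9, statsmodels 0.14.6, scipy 1.17.1, pandas 2.3.3, numpy 2.4.6 and Python 3.11.15.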

Additional observations from a re-analysis of the deposited data

How the results depend on the processing

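No paired analysis was possible because each group is 1 array and the values come from no test. Under quantile normalization, centring on the median, loess, the 95th percentile of background genes and unshared probe sets, the members at least 2-fold higher were again Efemp1, Mgp and Sfrp1, and 0 were 2-fold lower under every alternative. Centring on the spikes gave 10 higher members and a member median of 0.61 on the log2 scale, with all genes then at a median of 0.28, and relative to it 3 were higher and the member median was 0.33. With background set to the median signal 4 were higher (Fmod added), and with no background level 5 (Fmod and Sfrp2 added). With the mean of all probe sets 6 were higher (Dcn, Ogn and Pdgfrb added). There, probe sets below background entered the mean, and Pdgfrb was a bound. Measured members numbered 41 when centred on the spikes, 40 with the 95th percentile and 45 with no background level. They numbered 35 with the mean of probe sets, 37 with unshared probe sets and 42 under the other settings. A 1.5-fold threshold gave 14 higher members and a 3-fold threshold 1 (Efemp1). Relative to the median of all genes, Efemp1 ranged from 1.79 to 1.82, Mgp from 1.50 to 1.53 and Sfrp1 from 1.17 to 1.52 over 9 alternatives. Lamc1 ranged from 0.12 to 0.76 and Pdgfra from -0.11 to 0.33. Efemp1 and Mgp each have 1 probe set, well above background on both arrays. Alternatives on background and probe sets could therefore not change their log2 ratios, and their narrow ranges are no sign of precision. The low value of Lamc1 arose where its second probe set, below background on both arrays, entered the mean. Of 42 members, 39 kept their sign, relative to the median of all genes, in each alternative that gave a value, and Ccn1, Sfrp2 and Pdgfra did not. Signals near the background level limit Eln, Ltbp1, Fmod, Sfrp2, Mfap2, Fbln1 and the second probe set of Ogn. With the 95th percentile of background genes, 192 units, Mfap2 exceeded the level on the CSF1 array only, so its log2 ratio became a bound of 0.60.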
